A study of Mus musculus with 39 samples.

Results

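H3K9me3 regions that carried a peak in every one of the 9 H3K9me3 libraries of mouse nEnd are described here. Peaks of the 9 libraries were merged where they touched or overlapped, which gave 57781 regions, and 1673 of them (2.90%) had a peak in 9 of 9 libraries. The regions were chosen by their H3K9me3 peaks, in the same 9 libraries, so their H3K9me3 values are given as a description, with no test. CUT&Tag, in which an antibody tethers a transposase that cuts and tags the chromatin around a histone mark, was performed on naive extra-embryonic endoderm (nEnd) of a single reporter cell line, OCT4-mCherry, under the label no treatment. Cells of one culture type were separated by FACS on OCT4-mCherry and on an APC-labelled PDGFRA antibody into Oct4+, double positive (DP) and Pdgfra+ populations, with 3 replicates each. All 3 populations therefore shared the reporter allele, the culture and the sort. The study speaks of 3 biological replicates, but neither it nor the labels say whether these were separate cultures. The p-values therefore measure the spread between these libraries. The other 27 libraries covered H3K4me1, H3K27ac and H3K27me3 in the same design. The labels also name 3 IgG samples, a single one for each population, not analysed here. Peaks were called against IgG. If each population was called against its own IgG sample, peak threshold and list length cannot be told apart from population in the comparisons below.

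H3K9me3 is the mark of constitutive heterochromatin. In early embryonic cells it is placed at satellite repeats, and at endogenous retroviruses and imprinting control regions by SETDB1, which is brought to DNA by TRIM28 and by KRAB zinc finger proteins that each recognise a DNA sequence. ZFP809 is known to bind the primer binding site that matches proline tRNA, and ZFP57 and ZFP445 are known to act at imprinted loci, where the DNA-methylated form of the hexamer TGCCGC is the ZFP57 motif. The 3' exons of zinc finger genes themselves are a further well-known place of H3K9me3. The sequences that stand for these 4 kinds of region are printed with each group.

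The 1673 regions spanned 14.8 Mb, 0.561% of the genome and 6.65% of all merged H3K9me3 sequence. Their width ran from 680 to 73393 bases with a median of 7107, against 3282 for all merged regions. At least 1 base was under a peak of all 9 libraries in 1524 of them (91.1%), and in the other 149 the 9 libraries had peaks at different places of the same merged region. The position of the H3K9me3 maximum spread over a median of 1706 bases between libraries, and over less than 1 kb in 463 regions (27.7%). They lay on every chromosome except Y, with 157 on chromosome 5 (4.16% of its merged regions) and 106 on chromosome 17 (4.23%). Chromosome X held 7 of 1199 (0.584%).

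H3K9me3 signal was compared within libraries, because the coverage in the lists is unscaled and sequencing depth is unknown. Each peak was given its percentile by total signal in its own library's list, and a region took that of its strongest peak. Such a percentile depends on the length of the list as well as on signal. Over libraries, the median percentile of the 1673 regions was 89.2, 86.7 and 79.98 in Oct4+, 88.4, 93.8 and 88.0 in DP and 91.3, 68.7 and 86.6 in Pdgfra+ (replicates 1 to 3). The regions took 6.35 to 16.1% of the peaks and 14.9 to 27.8% of the listed signal in 8 libraries, and 35.9% and 45.8% in Pdgfra+ replicate 2. That library listed 5322 peaks, against 12701 to 29970 in the others. It was also the missing library at 1257 of the 1888 regions found in 8 libraries, and without it 2928 regions had a peak in 8 of 8.

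**Figure D1:**
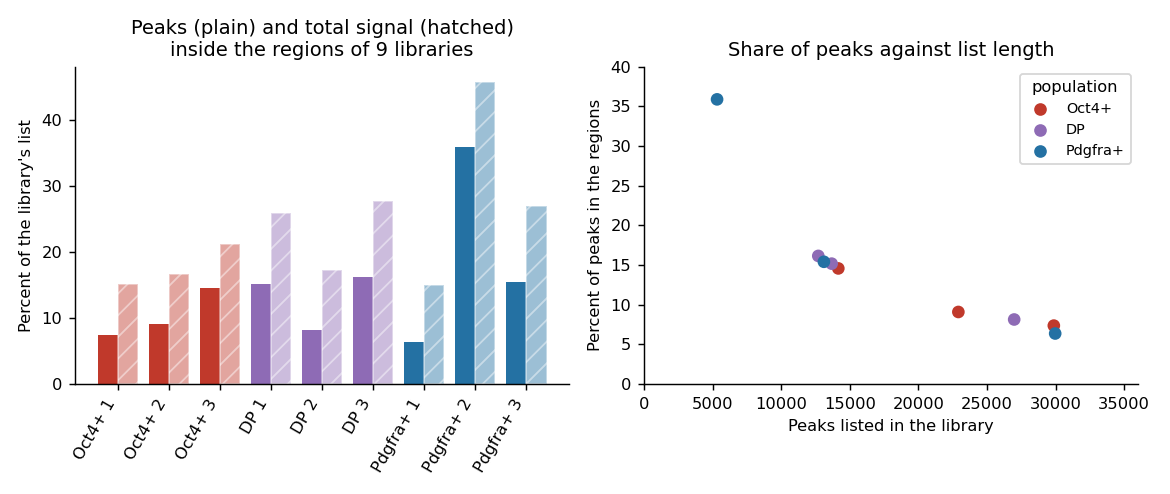
Left, percent of each H3K9me3 library's peaks (plain bars) and of its listed total signal (hatched bars) that lay inside the 1673 regions, by population and replicate; right, the percent of peaks against the number of peaks listed. Pdgfra+ replicate 2, with 5322 peaks, stands at 35.9% of its peaks, and the longest list, of 29970, at 6.35%.

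The strongest regions opened the assembled sequence of 3 chromosomes. Named by the median percentile over 9 libraries, the 8 highest included chr3:3000025-3035326, chr17:3003209-3039402 and chr9:2999998-3073390, each beginning within a few kb of the assembled start of its chromosome, beside the centromere. Within 10 kb around the maximum, bases repeated themselves at a distance of 21 bases on chromosomes 3 and 17 (62.7 and 59.4% identical) and of 31 bases on chromosome 9 (62.3%), against a median of 24.7 to 25.4% over all distances of 20 bases to 1 kb. The arrays of chromosomes 3 and 17 were related. The chromosome 17 word CACAGTGCT occurred 135 times in its own 10 kb and its reverse complement 92 times in that of chromosome 3. The stretches below show the commonest 9-letter word of each array in capitals.
chromosome 3 array, chr3:3009477-3009596, plus strand: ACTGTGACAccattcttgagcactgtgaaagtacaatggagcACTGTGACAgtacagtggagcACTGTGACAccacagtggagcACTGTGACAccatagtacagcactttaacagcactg
chromosome 17 array, chr17:3008711-3008830, plus strand: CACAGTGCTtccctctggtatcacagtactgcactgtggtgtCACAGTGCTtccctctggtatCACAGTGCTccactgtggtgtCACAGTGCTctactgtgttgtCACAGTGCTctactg
chromosome 9 array, chr9:3063632-3063751, plus strand: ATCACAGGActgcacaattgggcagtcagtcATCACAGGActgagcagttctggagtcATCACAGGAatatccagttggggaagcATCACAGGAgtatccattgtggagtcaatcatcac

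At the chromosome 9 array the populations stood apart. Its highest coverage, which is not scaled for depth, was 12, 11 and 7 in Oct4+, 20, 25 and 18 in DP and 285, 170 and 214 in Pdgfra+ libraries. The array held 0.0308, 0.0309 and 0.0260% of the listed signal of Oct4+ libraries, 0.121, 0.0585 and 0.0938% of DP and 0.663, 2.97 and 1.204% of Pdgfra+. None of the 3 groups overlapped, on either measure. Bases under its peaks overlapped between Oct4+ (11265 to 21362) and DP (20070 to 28705) and lay at 68116 to 73049 in Pdgfra+. The region spans predicted genes such as Gm10715 and Gm10717. H3K27ac peaks lay in it in 3 libraries and H3K4me1 peaks in 1. At the chromosome 3 array the shares of listed signal were 0.0655, 0.0683 and 0.0699% in Oct4+, 0.221, 0.148 and 0.220% in DP and 0.118, 0.434 and 0.203% in Pdgfra+, so DP and Pdgfra+ overlapped there and both lay above Oct4+. The sources used here do not give how reads matching several places were placed. The part of read placement in these values was not tested.

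The other strongest regions were not tandem arrays. At chr4:152482108-152527291 the maximum lay in an intron of Nphp4, a ciliary gene, and the lowest percentile of 9 libraries was 99.9. The nearest transcript start of Nphp4, which need not be the start of the gene, was 0.952 kb away. All distances to the start of a gene are given to its nearest annotated transcript start. At chr2:179444066-179512039 it lay in an intron of Cdh4, which encodes a cadherin, with a lowest percentile of 99.1. The region chr12:20221069-20253412 lay in an intron of the annotated gene Gm49692, with a lowest percentile of 99.7, and held a proline primer binding site printed with the retroviral sites. Regions chr13:12847322-12867664 and chr13:12869798-12935074 were neighbours between 61.5 and 71.4 kb from the start of the prolactin-family genes Prl2c3 and Prl2c2. In the first of this pair 32-base words at the maximum had a median of 454 copies in the genome. Among the 5 widest regions, chr4:140265799-140330338 (64540 bases) lay 30.8 kb from the start of Igsf21, and chr11:113946503-114005591 (59089 bases) in an intron of Sdk2, a cell adhesion gene.

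Primer binding sites were used to look for retroviral elements. A retrovirus starts reverse transcription from a host tRNA, and the site reads TGG followed by the complement of the end of that tRNA. Sites were taken from the ends of RefSeq tRNA genes found at least 2 times, 18 bases long, and were sought on both strands of GRCm38 with at most 1 mismatch. The forms held by most tRNA genes are shown for 5 tRNAs, with a further form for lysine, with the tRNA-derived 15 bases in capitals. Proline sites are known from murine leukaemia virus-like elements and phenylalanine sites from intracisternal A particles.
tRNA-Pro: tggGGGCTCGTCCGGGAT
tRNA-Phe: tggTGCCGAAACCCGGGA
tRNA-Lys: tggCGCCCAACGTGGGGC
tRNA-Lys: tggCGCCCGAACAGGGAC
tRNA-Gln: tggAGGTCCCACCGAGAT
tRNA-Gly: tggTGCATTGGCCGGGAA

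Of 4995 sites in the genome, 253 (5.07%) lay in 234 of the 1673 regions. Proline sites stood out in this count, with 78 of 285 (27.4%) in the regions. The shares were 8.94% for glutamine (21 of 235), 8.73% for lysine (33 of 378), 6.49% for threonine (10 of 154), 4.40% for glycine (22 of 500), 3.42% for phenylalanine (75 of 2196) and 1.35% for isoleucine (13 of 965). None of the 82 leucine and 53 methionine sites was in such a region. By number of libraries with a peak, from 1 to 9, proline sites numbered 9, 4, 2, 7, 6, 9, 9, 25 and 78, and 136 had no H3K9me3 peak. No proline site lay in the 2561 regions that were found in all Oct4+ libraries and in no other, where 70 phenylalanine sites lay (3.19% of them). Over all tRNAs 100 of the 4995 sites lay there, so few of 285 proline sites could. The share was 2.38% for lysine, 1.28% for glutamine, 0.933% for isoleucine and 0.8% for glycine, and methionine also had 0.

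Copy number differed between these tRNAs. Reads from elements with near-identical copies can match several places. Words of 32 bases, every 100 bases over 2 kb around each site, were therefore counted in the genome. Their median copy number was 10 over proline, 53 over phenylalanine, 75 over isoleucine and 14 over glycine sites. It was lower than for proline over glutamine (4), lysine (1) and threonine sites (1), whose shares in the regions were also lower. Of the 72 proline sites with a median of 1 copy, 46 (63.9%) lay in the 1673 regions, 8 in regions of 8 libraries and 9 in no H3K9me3 peak. The share of single-copy sites in the regions was 20.4% for glutamine (20 of 98), 11.8% for phenylalanine (31 of 263), 10.99% for lysine (21 of 191), 10.8% for glycine (15 of 139) and 11.4% over all (151 of 1322). Proline sites therefore had the highest share both with all sites and with single-copy sites, among the 7 tRNAs with at least 10 sites in the regions. Proline sites lay a median of 715 bases from the H3K9me3 maximum, and 69 of 78 within 2 kb. Lysine sites were nearer, at 553 bases. The regions that held proline sites had a median percentile of 96.2, and those of the other 6 tRNAs had 91.4 to 95.7, all above the 87.1 of the 1673.

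**Figure D2:**
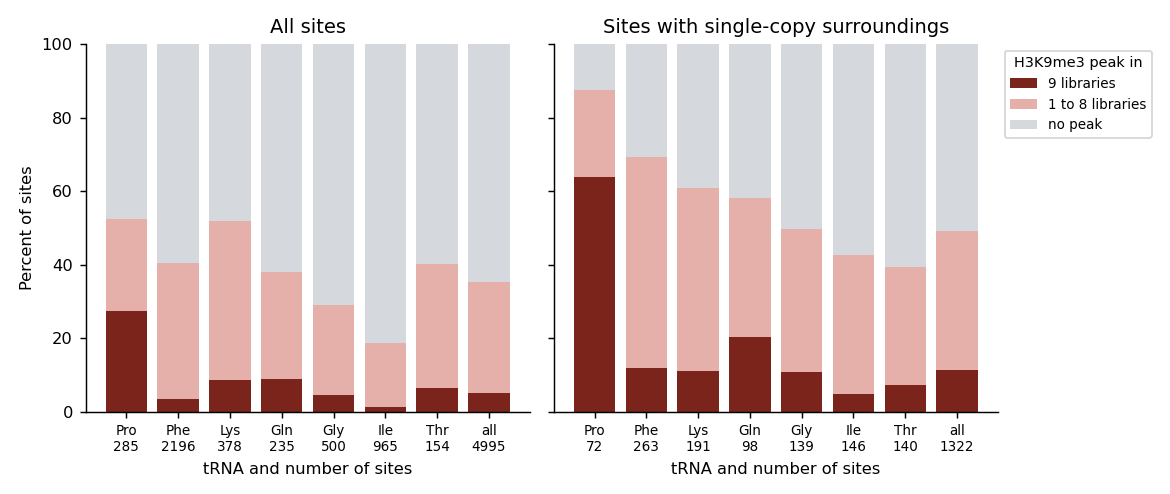
Percent of primer binding sites of each tRNA (number of sites under each bar) that lay in H3K9me3 regions of 9 libraries, in regions of 1 to 8 libraries or under no H3K9me3 peak, for all sites (left) and for sites whose surrounding 32-base words were single copy (right). Proline sites lay in 9-library regions in 27.4% of all cases and in 63.9% of single-copy cases.

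The proline sites of the 3 highest ranked regions with an exact match, and the phenylalanine site of the highest such region, are shown with 30 bases on each side, the site in capitals. They were chosen after their values were seen.
proline site on chromosome 12, chr12:20234284-20234361, minus strand: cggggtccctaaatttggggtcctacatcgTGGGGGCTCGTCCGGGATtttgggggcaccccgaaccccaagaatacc
proline site on chromosome 11, chr11:120757286-120757363, minus strand: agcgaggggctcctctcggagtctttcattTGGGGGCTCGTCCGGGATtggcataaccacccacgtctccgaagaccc
proline site in Ddr2, chr1:170016374-170016451, plus strand: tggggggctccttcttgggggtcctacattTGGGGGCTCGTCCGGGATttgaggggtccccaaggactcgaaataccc
phenylalanine site on chromosome 1, chr1:176581090-176581167, minus strand: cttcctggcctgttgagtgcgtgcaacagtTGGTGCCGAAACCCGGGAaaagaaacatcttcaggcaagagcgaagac

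The region around the chromosome 11 site, chr11:120753710-120763720, was intergenic, 3.96 kb from the start of Hmga1b, and its percentile was 98.4 to 99.7 over the 9 libraries. That of the Ddr2 intron, chr1:170007774-170022325, was 98.3 to 99.5, and no peak of another mark lay in it in any of 27 libraries. The phenylalanine region, chr1:176580599-176589970, was intergenic with 96.3 to 99.7, and 83.4% of its 2 kb window was soft-masked as repeat.

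Imprinted genes were the gene list with the highest share at these regions. Of 35 listed genes, 18 (51.4%) had a region at the gene body or up to 1 kb upstream, against 590 of 21938 protein-coding genes (2.69%). The 2 sets were not alike. The imprinted list also held noncoding genes, and its genes had a median length of 30.7 kb, against 17.4 kb for all coding genes. The 18 genes fell on 11 regions of 8305 to 14304 bases, so that partner genes were counted separately on 1 region. These were H13 with Mcts2, Blcap with Nnat, Gnas with Nespas, Herc3 with Nap1l5, Commd1 with Zrsr1, Trappc9 with Peg13, Igf2r with Airn, and H19, Igf2, Inpp5f and Plagl1 alone. Several of these genes share an imprinting control region with a partner, and Airn and Nespas are long noncoding RNAs expressed from the paternal copy. Another 4 genes, Kcnq1ot1, Peg3, Snrpn and Mest, had a region with 8 libraries, and in each the missing library was Pdgfra+ replicate 2. Cdkn1c, Peg10, Sgce, Meg3 and Rasgrf1 had 5 libraries, 6 others had 1 to 4, and Ndn and Magel2 had no H3K9me3 peak.

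Sequence at the imprinted regions was unlike that of the other regions. CpG observed over expected in the 2 kb around the maximum had a median of 0.596 over the 11, against 0.216 over all 1673 and 0.161 over 2 kb bins of the genome. It was highest at Nnat (0.795) and Plagl1 (0.766), and low at Igf2 (0.221) and at H13 and Mcts2 (0.234). The hexamer TGCCGC, sought on both strands as TGCCGC or GCGGCA, was in 8 of the 11 windows, with 3 to 8 copies in each. It was in 22.3% of the windows of all 1673 regions (373), in 22.2% of those with 5 to 8 libraries, in 12.1% of those with 1 library and in 10.7% of genome bins. Windows with 3 or more copies made up 1.79% of the 1673 and 0.283% of genome bins. The hexamer itself holds a CpG, and the compared windows were not matched for CpG content. Whether it was more frequent than the CpG content gives was not tested. The 120 bases with most copies are shown for 5 imprinted regions, hexamers in capitals.
H19 region, chr7:142580276-142580395, plus strand: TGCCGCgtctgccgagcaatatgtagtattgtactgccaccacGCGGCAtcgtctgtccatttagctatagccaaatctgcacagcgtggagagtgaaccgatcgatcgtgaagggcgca
Igf2r and Airn region, chr17:12742323-12742442, plus strand: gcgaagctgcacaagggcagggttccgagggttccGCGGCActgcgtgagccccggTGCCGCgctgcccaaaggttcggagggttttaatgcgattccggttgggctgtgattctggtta
Inpp5f region, chr7:128687971-128688090, plus strand: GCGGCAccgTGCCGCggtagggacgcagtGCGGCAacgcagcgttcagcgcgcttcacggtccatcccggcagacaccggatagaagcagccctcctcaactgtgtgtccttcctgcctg
Nnat region, chr2:157560287-157560406, plus strand: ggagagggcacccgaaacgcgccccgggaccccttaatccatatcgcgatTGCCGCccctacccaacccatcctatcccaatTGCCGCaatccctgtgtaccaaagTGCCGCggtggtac
Peg13 region, chr15:72809938-72810057, plus strand: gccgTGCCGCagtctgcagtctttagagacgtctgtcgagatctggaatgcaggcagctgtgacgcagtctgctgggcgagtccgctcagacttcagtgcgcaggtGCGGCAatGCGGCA

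List percentiles of H3K9me3 at the imprinted regions varied between libraries, in part with list length. At Nnat, Pdgfra+ replicate 2, the shortest list, had the lowest percentile of the 9 libraries (72.6). By rank of total signal among the 1673 regions it had the highest (84.3). At H19, whose upstream control region regulates H19 and Igf2, the percentile was 99.5, 99.3 and 99.8 in Oct4+, 97.9, 99.1 and 97.6 in DP and 88.0, 26.1 and 97.2 in Pdgfra+. At Plagl1, a growth-regulating zinc finger gene, it was 98.05, 95.1 and 89.2 in Oct4+, 77.1, 35.2 and 89.1 in DP and 76.9, 69.7 and 65.0 in Pdgfra+. In both regions every Oct4+ library was above every DP and every Pdgfra+ library, at Plagl1 narrowly so for DP (89.2 against 89.1). At Igf2, a fetal growth factor, the values were 98.0, 97.1 and 49.4 in Oct4+, 99.1, 99.7 and 99.2 in DP and 99.5, 98.2 and 99.5 in Pdgfra+, so that every Oct4+ library was below the rest. By rank among the 1673 regions, Oct4+ was also above the rest at H19 and Plagl1 and below at Igf2, without overlap. The Igf2 region also had H3K27me3 peaks in 5 of 9 libraries. At Airn and Igf2r, the receptor that clears IGF2, Oct4+ replicates gave 99.2, 95.7 and 42.5 and overlapped the other populations. H3K27ac peaks lay at 6 of the 11 regions, in 6 libraries each at Nnat, H13 and Zrsr1, and no H3K4me1 peak lay at any of them.

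**Figure D3:**
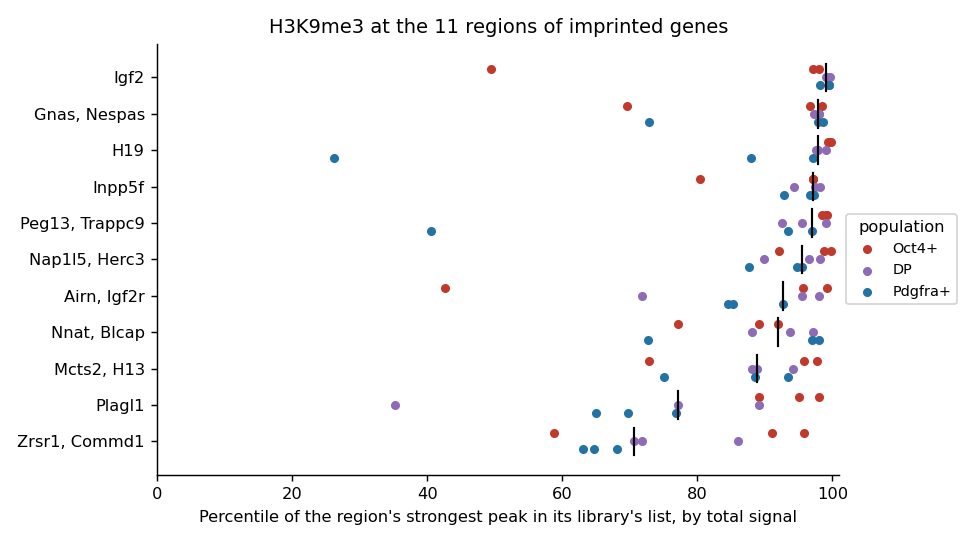
List percentile of H3K9me3 (by total signal, per library) at the 11 regions of imprinted genes, 1 row per region, with 3 points for each population and a black line at the median of 9 libraries. Medians run from 70.7 (Zrsr1 and Commd1) to 99.1 (Igf2), and single libraries fall to 26.1 (H19, Pdgfra+ replicate 2). Percentiles also depend on list length, which was shortest in that library.

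Zinc finger genes of the Zfp and Zscan families, many of which encode the KRAB proteins named above, formed the other gene group at these regions. Of 388 listed genes, 36 (9.28%) had a region at the gene body or upstream, on 35 regions, against the 2.69% of all protein-coding genes. With equal numbers of peaks in the 9 lists the shares were 4.38% (17) and 1.05%, and with the gene start required inside the region 1.29% (5) and 0.301%. The region reached the last 500 bases of the gene in 27 of the 36 (75%) and the start in 5 (13.9%). For all 590 genes with a region these shares were 29.2% (172) and 11.2% (66). Reaching an end does not place the H3K9me3 maximum there. Of the 5 regions named for zinc finger genes, the maximum was intergenic at Zfp420 with Zfp27 and at Zfp990. It lay 20.3 kb upstream of the start of Zfp982, and within the gene at Zfp110 and Zfp981. The linker between zinc fingers is coded by a repeated stretch, and the letters ACTGGN followed directly by GAGA, sought on both strands, were found at least 3 times in 34 regions, 2.03% of the 1673. This was 0.287% over regions of 1 to 8 libraries, 0.865% over those of 5 to 8 and 10.9% over the 313 regions of DP and Pdgfra+ without Oct4+. Regions of 1 to 8 and of 5 to 8 libraries were narrower than the 1673. In 2 kb windows the shares were 0.658% for the 1673, 0.504% for regions of 5 to 8 libraries, 0.171% for 1 to 8 and 0.0316% for genome bins. The 1673 were therefore near the regions of 5 to 8 libraries in equal windows. Of the 35 zinc finger regions, 10 held the linker at least 3 times, so it was not repeated in most of them. A 200-base stretch under the region chr7:29872077-29901295, the one that held 2 zinc finger genes, is shown with the linkers in capitals. That region held 13 of them in all, well above most zinc finger regions.
Zfp420 and Zfp27 region, chr7:29874762-29874961, plus strand: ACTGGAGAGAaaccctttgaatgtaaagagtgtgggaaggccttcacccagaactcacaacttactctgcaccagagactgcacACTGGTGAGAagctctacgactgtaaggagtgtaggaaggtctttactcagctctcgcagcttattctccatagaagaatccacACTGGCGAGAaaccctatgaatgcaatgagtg

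That region lay across the 3' ends of Zfp420 and Zfp27 and its percentile was 96.6 to 99.8 in the 9 libraries. Other zinc finger regions were uneven. At Zfp110, chr7:12836080-12855776, with the maximum in an exon, the percentile was 71.3, 25.3 and 57.8 in Oct4+, 99.9, 99.9 and 99.8 in DP and 99.8, 99.4 and 99.8 in Pdgfra+. Peaks covered 1092 to 2563 bases of it in Oct4+ and 13344 to 18182 in the other libraries. At Zfp981, chr4:146512911-146541744, it was 42.5, 77.96 and 82.8 in Oct4+ and at least 99.7 in the other 6 libraries. At Zfp990, chr4:145531444-145570318, it was 90.6, 83.2 and 53.7 in Oct4+ and at least 99.6 elsewhere. In these 3 regions Oct4+ did not overlap the other populations. At Zfp982, chr4:147460434-147494213, it was at least 99.5 in Oct4+ and 97.6 to 99.7 elsewhere. Zfp981, Zfp990 and Zfp982 belong to a cluster between 145 and 148 Mb of chromosome 4, a window chosen after seeing the data, where 22 of the regions covered 344 kb and 7 of 18 listed zinc finger genes had one. Zfp445, named above, had a region with a median percentile of 99.4, and was singled out after its values were seen.

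Lists of other genes gave few members. None of 25 germline, 16 pluripotency, 16 endoderm and 14 trophectoderm genes, of 57 clustered protocadherin and 39 Hox genes had one of the 1673 regions. Against 2.69% of all coding genes, lists this short could hold few, and nothing is read from these zeros. Some merged H3K9me3 region lay at 20 of the 25 germline, 33 of the 57 protocadherin, 3 of the 16 pluripotency, 4 of the 16 endoderm, 3 of the 14 trophectoderm and 0 of the 39 Hox genes, against 30.6% of all coding genes. Olfactory receptors had 5 of 1093 (0.457%) and vomeronasal receptors 8 of 327 (2.45%). Cytochrome P450 genes had 2 of 93 (2.15%) and ribosomal protein genes 2 of 77 (2.60%). Apart from olfactory receptors, these shares were near the 2.69% of all coding genes. Of 20 genes of the heterochromatin machinery, Atf7ip, a partner of SETDB1, had a region at its 3' end, chr6:136610186-136615260, with a maximum in an exon of the neighbouring Plbd1. Its percentile was 71.9, 53.7 and 68.2 in Oct4+, 87.9, 96.1 and 86.3 in DP and 85.8, 72.2 and 91.0 in Pdgfra+. Genes with a region were long, with a median of 70.3 kb against 17.4 kb for all. A protein-coding TSS lay in 129 regions (7.71%), against 2.85% of all merged regions, but within the 2 kb window at the maximum in 30 (1.79%), against 1.58%.

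Soft-masked repeats made up a median of 42.1% of the 2 kb window at the maximum. The same median was 42.3% for regions of 5 to 8 libraries, 37.6% for 2 to 4, 30.1% for 1 library and 27.4% for genome bins. It was 50.5% in the 2561 Oct4+ regions and 23.7% in the 313 regions of DP and Pdgfra+. Windows with more than 90% repeat were 2.39% of the 1673 and 9.70% of genome bins, so windows masked this heavily were a smaller share here. At 244 maxima (14.6%) the 32-base words had a median of more than 1 copy, against 18.5% of Oct4+ regions and 2.88% of DP and Pdgfra+ regions. GC content had a median of 45.4% (genome bins 41.3%) and CpG observed over expected of 0.216 (0.161).

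Presence in every library did not mean equal strength. Ranks of total signal over the 1673 regions had Spearman correlations of 0.798 to 0.891 within Oct4+, 0.735 to 0.763 within DP and 0.626 to 0.794 within Pdgfra+ libraries. Between populations they were 0.456 to 0.574 for Oct4+ with DP, 0.270 to 0.461 for Oct4+ with Pdgfra+ and 0.556 to 0.780 for DP with Pdgfra+. These are descriptions over regions, which share each library's depth and threshold. The lowest total signal listed differed between populations, at 3752 to 4609 (Oct4+), 6021 to 6596 (DP) and 7633 to 8993 (Pdgfra+). Every Oct4+ rank was above every Pdgfra+ rank at 400 regions (23.9%), and below at 382 (22.8%). For Oct4+ and DP the counts were 396 (23.7%) and 359 (21.5%), and for DP and Pdgfra+ 148 (8.85%) and 146 (8.73%).

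**Figure D4:**
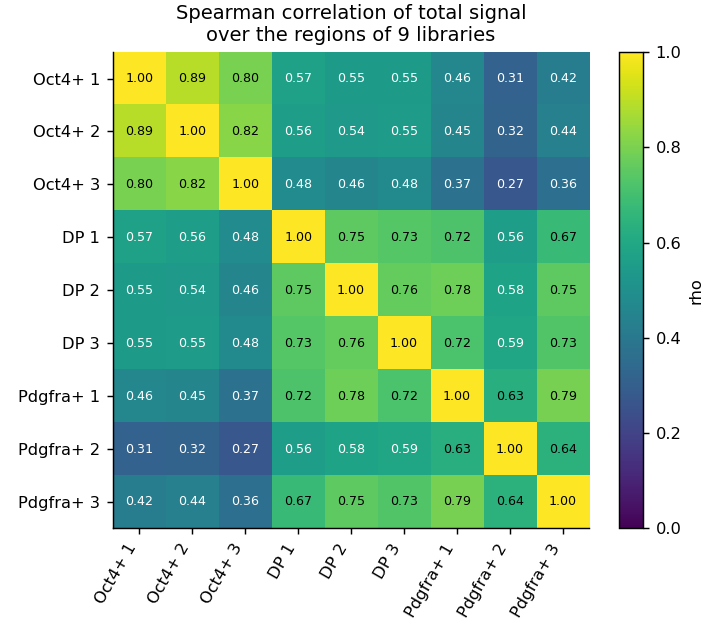
Spearman correlation of the total signal of the 1673 regions for each pair of the 9 H3K9me3 libraries, given as colour and number. Oct4+ libraries correlate with each other at 0.80 to 0.89 and with Pdgfra+ libraries at 0.27 to 0.46.

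The direction of these ranks differed between kinds of region. Among 75 regions with a phenylalanine site, 36 (48.0%) were higher in Oct4+ than in Pdgfra+ without overlap and 2 (2.67%) lower, against the 23.9 and 22.8% over all. Among 30 with a lysine site the counts were 13 and 4. Among 78 with a proline site they were 12 (15.4%) and 20 (25.6%). Among 35 zinc finger regions they were 4 (11.4%) and 19 (54.3%), and among the 11 imprinted regions 4 and 2. Regions higher in Oct4+ had a median of 44.8% repeat and a maximum in a protein-coding gene in 20.5%, those higher in Pdgfra+ 33.3% and 35.1%. These differences were not tested, since the regions and their ranks come from the same peaks.

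Other marks were measured in libraries that the choice of regions did not use. No peak of H3K4me1, H3K27ac or H3K27me3 lay in 937 of the 1673 regions (56.0%) in any of 27 libraries, less than the 73.6% of all merged H3K9me3 regions, which were narrower, and none of the regions had a peak in more than 15. H3K27ac reached 657 regions (39.3%) in at least 1 library, against 22.8% of all merged regions, and 302 of the 657 rested on a single library. H3K4me1 reached 223 (13.3%, against 6.19%) and H3K27me3 70 (4.18%, near the 3.52% of all). In Oct4+ libraries H3K27ac lay at 23.2, 32.2 and 8.19% of the regions, in DP at 7.53, 2.09 and 6.10% and in Pdgfra+ at 1.97, 2.51 and 3.05%. The means were 21.2 ± 12.1, 5.24 ± 2.82 and 2.51 ± 0.538% (SD, n = 3; exact permutation of population labels on F, p = 0.0107, Benjamini-Hochberg adjusted p = 0.0321 over 3 marks). Every Oct4+ value was above every DP and Pdgfra+ value, the nearest being 8.19% in Oct4+ replicate 3 and 7.53% in DP replicate 1. H3K27ac at the other 56108 H3K9me3 regions moved the same way, at 9.97, 1.33 and 0.716%, and so did the lists, of 8574 to 65131, 3079 to 12244 and 4792 to 7128 peaks. With 3079 peaks in each list, Oct4+ and Pdgfra+ means were 5.08 and 1.39% (exact permutation, adjusted p = 0.0214). The call was lost when the 326 regions with a TSS of any gene type were left out (18.04 and 1.91%, exact permutation, adjusted p = 0.150). It was also lost without any 1 of the 6 DP and Pdgfra+ libraries (exact permutation, adjusted p = 0.118 to 0.150). Under a replicate block the adjusted p was 0.167, where the smallest possible beside the other marks was 0.0833, so that the block could not give a call.

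H3K4me1 lay at 4.06 ± 3.13, 3.71 ± 2.23 and 1.41 ± 1.83% of the regions in Oct4+, DP and Pdgfra+ (exact permutation p = 0.379, adjusted p = 0.379), and H3K27me3 at 0.857 ± 0.780, 1.57 ± 0.565 and 0.717 ± 0.747% (exact permutation p = 0.304, adjusted p = 0.379). For both marks the populations overlapped.

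Within a library, the regions were then compared with the 56108 H3K9me3 regions of 1 to 8 libraries, in windows of 2 kb at the H3K9me3 maximum so that width did not enter. H3K27ac was at 4.76% of the windows of the 1673 regions and at 3.30% of the others, a difference of 1.45 ± 1.16 points (SD over 9 libraries), higher in 9 of 9 (exact two-sided sign-flip permutation p = 0.00391, the smallest that 9 libraries can give, adjusted p = 0.0117). The difference was 2.67, 3.45 and 2.13 points in Oct4+, 2.14, 0.447 and 0.682 in DP and 0.346, 0.457 and 0.735 in Pdgfra+. H3K4me1 differed by -0.107 ± 0.196 points and was higher in 2 of 9 libraries (exact permutation p = 0.145, adjusted p = 0.145), and H3K27me3 by -0.276 ± 0.369 points and was higher in 3 of 9 (exact permutation p = 0.0664, adjusted p = 0.0996). For H3K4me1 the sign turned with the window, from -0.227 points in 500 bases to 1.46 in 10 kb, each with an adjusted p of 0.00586 by the exact permutation test. For H3K27me3 it was -0.321 in 10 kb (adjusted p = 0.0391) and turned to 0.176 over whole regions (adjusted p = 0.00391), by the same exact permutation test.

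**Figure D5:**
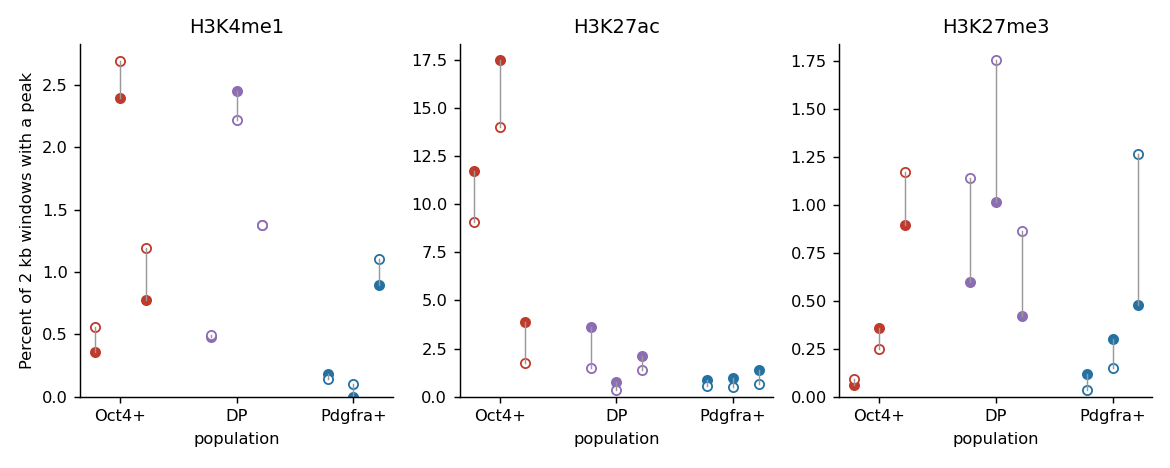
Percent of 2 kb windows at the H3K9me3 maximum with a peak of H3K4me1, H3K27ac or H3K27me3, for the 1673 regions (filled) and the regions of 1 to 8 libraries (open), joined for each library, with 3 libraries per population. For H3K27ac the filled point is above the open one in 9 of 9 libraries.

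The 5 regions with other marks in most libraries were mixed in place. Region chr6:90988879-90994564, 3.50 kb from the start of Iqsec1, had H3K27ac in 8 libraries, H3K4me1 in 6 and H3K27me3 in 1. Region chr15:88867228-88872624, 3.72 kb from the start of the kinase gene Pim3, had H3K27ac in 8 and H3K4me1 in 7. Region chr12:114460129-114470475, with its maximum in an exon of the immunoglobulin segment Ighv8-2, had H3K27ac in 9 and H3K4me1 in 5, as did a region on chromosome 18 at 55.8 kb from the start of Ccny. Region chr1:85583706-85602094, in an intron of Sp110, an interferon-induced nuclear body gene, had H3K27me3 in 8 and H3K27ac in 5, with an H3K9me3 percentile of 97.6 or higher.

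Membership turned on single weak peaks at some places. The 3 regions just inside the rule by their weakest library were chr7:93991802-93996738, chr6:10540897-10546025 and chr3:16227400-16232802, with lowest percentiles of 0.0470, 0.0534 and 0.0706 in Pdgfra+ replicate 2, Pdgfra+ replicate 3 and Oct4+ replicate 3, and medians of 76.3, 68.0 and 60.2. In all, 93 of the 1673 (5.56%) had a percentile under 5 in some library. Just outside, with 8 libraries and the highest medians, were chr4:146452368-146466406 in an intron of Zfp992 (median 99.5), chr2:156823463-156836392 at 7.71 kb from the start of Tgif2 (99.4) and chr7:86002763-86017358 at 50.2 kb from the start of Vmn2r74 (99.2). The missing library was Oct4+ replicate 3, replicate 2 and replicate 3.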

How the data were processed

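The 9 H3K9me3, 9 H3K4me1, 9 H3K27ac and 9 H3K27me3 peak lists were used. Per the labels and the study's methods, the authors sequenced CUT&Tag libraries paired-end after 14 PCR cycles, and peaks were called per library against IgG with SEACR (stringent). The submitters' processing notes name mm10, bcl2fastq 2.19.1, Bowtie2, SAMtools 1.12, deepTools and bedtools 2.26.0. The deposited signal columns hold total and highest unscaled coverage of each peak. No counts or depths were given, so intervals that need depth are left out, and tests used only the presence of peaks. H3K9me3 strength was described by ranks within a library, and at 2 tandem arrays also by unscaled coverage or shares of listed signal.

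Peaks on chromosomes 1 to 19, X and Y were merged (Python 3.11.15, pandas 2.3.3, checked against bedtools 2.31.1), and genes came from GENCODE vM21 and sequence from RefSeq GRCm38.p6, the same build as mm10. The maximum is the library position with the least summed distance to those of the other libraries. A gene was counted at a region when its body or 1 kb upstream overlapped it. Distances to the start of a gene ran from the maximum to the nearest transcript start of a protein-coding gene. Repeat content is the soft-masked share. Tests were exact permutations over libraries, with adjusted p under 0.05 called, and the code was tested on simulated data. Regions were named by median percentile (8), width (5), the gene lists, other marks (5), nearness to the rule (3 on each side) and zinc finger genes (5). Members, lists and this rule were chosen with earlier results of these data known. Alternatives covered peak number, overlap, window, block and each library left out.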

Additional observations from a re-analysis of the deposited data

How the results depend on the processing

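The count of regions rested on list length. It was 604 with 5322 peaks per library and 778 with the 50% of peaks of highest signal, and 1668 to 2928 with 1 library left out, the highest without Pdgfra+ replicate 2. Merging peaks up to 1 kb apart and asking for a shared base kept it within 1.5 times. With equal numbers of peaks the repeat share was 40.7%, CpG observed over expected 0.235, the zinc finger share 4.38%, the share of regions with a protein-coding TSS 10.1% and the share of proline sites 18.2%. With 1 library left out these ran from 40.7 to 43.6%, 0.209 to 0.221, 8.76 to 11.1%, 6.25 to 7.71% and 27.02 to 33.3%, and imprinted genes from 18 to 22, with 12 for equal numbers of peaks and 16 where a base was shared. Counted by a TSS inside the region, the zinc finger share was 1.29%. The shares of all coding genes under these 2 settings were 1.05 and 0.301%.

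The H3K27ac gap between Oct4+ and Pdgfra+ of 18.7 points was 16.1 in regions without a TSS of any gene type (adjusted p = 0.150, exact permutation). It was 13.2 to 25.2 with 1 library left out. The H3K27me3 gap of 0.139 points ran from -0.299 to 0.558. Against other H3K9me3 regions, H3K4me1 differed by -0.227 points in 500 b, 1.46 in 10 kb and 1.66 in whole regions and -0.0747 with equal numbers of peaks, and H3K27me3 by -0.321 in 10 kb, 0.176 in whole regions and -0.142 with equal numbers. Each of these 7 differences against other H3K9me3 regions passed the threshold, and the sign turned with whole regions for both marks. With 1 library left out, the H3K4me1, H3K27ac and H3K27me3 differences ran from -0.150 to -0.0688, 1.201 to 1.59 and -0.329 to -0.211. The cause was not tested.

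H3K9me3 ranks showed no pairing by replicate number, and pairing was not checked for the other marks. Such ranks cannot tell whether same-numbered libraries came from one culture or sort, so pairing by design stays unknown. Deviations from the population mean rank correlated at -0.0991 to 0.0976 over 9 same-numbered pairs and -0.127 to 0.0835 over 18 others. With a replicate block the H3K27ac gap of 18.7 points had an adjusted p of 0.167 and the difference of 1.45 points 0.250 (exact permutation), where the smallest possible were an adjusted 0.0833 and an unadjusted 0.25, so that neither could pass and the block says nothing on stability. Alternatives for proline sites, imprinted genes and left-out libraries of sequence values were chosen after seeing the data. Depth is unknown, so a missing peak was not shown to be a missing mark.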
